A study of Mus musculus with 12 samples.

Results

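The genes described here are 10 components of the embryonic sarcomere, the contractile unit of striated muscle, whose transcripts were counted in RNA-seq libraries of E12.5 mouse forelimbs. They were chosen by symbol from a fixed list, drawn up with earlier results of these data known. All 10 were found among the 51826 gene identifiers of the forelimb count table and passed the filter on low counts. The forelimb groups were wild type (WT) and Prx-cKO, in which Impdh2, an enzyme of guanine nucleotide synthesis, is knocked out in the progenitors of the limb mesenchyme (Prx names the driver), and each held 2 libraries. The labels do not say whether the WT embryos carried a floxed allele, or whether a library was 1 embryo or a pool, so the p-values measure only the spread between these libraries. The 8 other libraries are used for background levels only. They came from osteoclast cultures grown from the marrow of WT mice or of LysM-cKO mice, which lack Impdh2 in the myeloid lineage, with 2 libraries for each genotype under the titles R0D3 and R40D3, which the labels do not spell out.

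Muscle fibres contract when myosin thick filaments pull on actin thin filaments, with troponin and tropomyosin on the thin filament passing on the calcium signal. In the embryo, limb muscle is first built from developmental and cardiac-type subunits, which are largely exchanged for adult fast or slow forms later. The cells that build it migrate into the limb bud from the somites, whereas Prx drivers act in the limb mesenchyme that forms cartilage, tendon and connective tissue.

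All 10 sarcomere genes had their highest level in the same library, Prx-cKO replicate 1, at 2.20 to 3.20 times the WT mean. The other knockout library, Prx-cKO replicate 2, lay at 0.716 to 1.27 times the WT mean. No sarcomere gene passed the test for a difference between the genotypes. The comparison thus rests on 1 library, and results are given with and without it. Levels are shares of a library. In whole limbs, more muscle cells, fewer other cells and more sarcomere RNA per muscle cell therefore cannot be told apart.

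The 4 forelimb libraries held 28892215 to 69466572 counts, and Prx-cKO replicate 1 had the fewest. Even so, its lowest sarcomere count was 208, for Myh8. Levels are in CPM, counts scaled to the effective library size, and values of a group are always given as replicate 1, then replicate 2. Impdh2 had 260.4 and 272 CPM in the WT pair against 169.7 and 199 CPM in the knockout pair. Its transcript was thus still abundant in the whole limb, with both knockout libraries below both WT libraries (log2 fold change −0.53, SE 0.16, edgeR adjusted p 0.443). The limb mesenchyme gene Prrx1 and the forelimb gene Tbx5 averaged 273 and 137 CPM over the 4 libraries, against 12.3 and 3.38 CPM for the hindlimb genes Tbx4 and Pitx1, matching a forelimb. By library, Prrx1 had 304 and 397 CPM in the WT pair against 175 and 216 CPM in the knockout pair (edgeR adjusted p 0.414). Tbx5 had 160 and 199 CPM against 97.0 and 91.2 CPM (edgeR adjusted p 0.340). Both knockout libraries thus lay below both WT libraries for Prrx1, Tbx5 and Tbx4, and above them for Pitx1. Prx-cKO replicate 1 and WT replicate 2 carried Y-linked Ddx3y counts (1152 and 4579), and the other two libraries carried Xist counts (92566 and 139968) with 0 of Ddx3y. Each genotype therefore had 1 library of each sex type.

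The promoter windows of 5 members are shown because they are the ones that hold a CArG box or an MCAT element. All 10 genes matched the RefSeq promoter table (GRCm38.p6), in which a window runs from 250 bases before a start site to 50 bases after it. Letters are in capitals where they match the CArG box, the site of serum response factor, or the MCAT element CATTCC, the site of TEAD factors, on either strand. Both strands were searched, and no CArG box overlapped an MCAT element.
Actc1, chr2:114052826-114053125, minus strand: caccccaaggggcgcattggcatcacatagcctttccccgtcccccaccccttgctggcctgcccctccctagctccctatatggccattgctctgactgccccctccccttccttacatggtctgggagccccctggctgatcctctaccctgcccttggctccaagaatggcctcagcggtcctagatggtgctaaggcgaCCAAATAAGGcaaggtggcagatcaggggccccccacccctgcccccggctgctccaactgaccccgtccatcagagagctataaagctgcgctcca
Acta1, chr8:123894726-123895025, minus strand: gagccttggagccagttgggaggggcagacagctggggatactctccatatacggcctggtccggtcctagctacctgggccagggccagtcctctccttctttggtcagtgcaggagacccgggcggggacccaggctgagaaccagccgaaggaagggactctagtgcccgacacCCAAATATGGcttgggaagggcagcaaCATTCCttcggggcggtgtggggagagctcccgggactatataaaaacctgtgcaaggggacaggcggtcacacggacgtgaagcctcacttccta
Tnnt2, chr1:135836084-135836383, plus strand: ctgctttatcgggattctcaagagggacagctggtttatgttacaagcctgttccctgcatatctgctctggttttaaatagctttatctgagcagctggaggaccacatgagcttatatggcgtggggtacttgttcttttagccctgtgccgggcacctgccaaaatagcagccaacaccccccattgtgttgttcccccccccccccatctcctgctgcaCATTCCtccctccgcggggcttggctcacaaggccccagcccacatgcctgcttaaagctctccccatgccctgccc
Tnnc1, chr14:31208062-31208361, plus strand: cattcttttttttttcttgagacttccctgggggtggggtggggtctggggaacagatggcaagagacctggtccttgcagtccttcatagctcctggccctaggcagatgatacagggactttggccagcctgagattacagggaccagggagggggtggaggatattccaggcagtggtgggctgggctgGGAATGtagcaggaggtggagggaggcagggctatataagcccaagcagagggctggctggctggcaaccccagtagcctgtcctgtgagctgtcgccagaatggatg
Myl1, chr1:66945007-66945306, minus strand: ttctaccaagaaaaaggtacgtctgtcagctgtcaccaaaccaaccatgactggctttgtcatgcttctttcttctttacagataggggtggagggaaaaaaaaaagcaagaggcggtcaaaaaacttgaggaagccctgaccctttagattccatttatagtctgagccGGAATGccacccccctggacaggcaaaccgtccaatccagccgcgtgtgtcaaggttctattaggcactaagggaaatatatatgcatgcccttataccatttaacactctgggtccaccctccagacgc

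A CArG box stood in 2 of the 12 member windows, those of Actc1 and Acta1, and in 1.63% of all 32851 windows in the table. An MCAT element stood in 4 of the 12, those of Acta1, Tnnt2, Tnnc1 and Myl1, against 14.7% of all windows. A site of the myogenic factor MEF2 stood in 1 member window, that of Myh8, against 3.19%. The E-box CANNTG, which MyoD-family factors bind, stood in 11 of the 12 windows and in 72.3% of all windows, so it hardly distinguishes them. The 12 windows cover 10 genes, since Tnnt2 and Tnni1 have 2 each, and those of Tnni1 overlap. Counted by gene, 9 of the 10 members had an E-box. These matches describe letters in a short window and do not show binding.

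The sarcomeric actins, which polymerise into the thin filament, were the first group examined. Actc1 (ENSMUSG00000068614, chromosome 2, from 114047282 to 114053548 in GRCm38) encodes cardiac alpha-actin, the main sarcomeric actin of early skeletal muscle. It had 120.2 and 124 CPM in the WT pair against 392 and 156 CPM in the knockout pair. Both knockout libraries lay above both WT libraries, but the knockout libraries differed 2.52-fold from each other, while the WT libraries were 1.03-fold apart. The WT mean was 122 ± 2.96 CPM and the knockout mean 274 ± 167 CPM (SD, n = 2), and edgeR put the log2 fold change at 1.16 (SE 0.43). This had the smallest p of the 10 genes and did not pass (edgeR adjusted p 0.473, unadjusted p 0.0414). Acta1 (ENSMUSG00000031972, chromosome 8, from 123891769 to 123894751) encodes skeletal alpha-actin, which predominates in adult muscle. Its level was 18.8 and 15.2 CPM in the WT pair against 48.2 and 18.9 CPM in the knockout pair (log2 fold change 0.97, SE 0.46, edgeR adjusted p 0.526). Prx-cKO replicate 2 exceeded the higher WT library by a ratio of only 1.005.

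**Figure D1:**
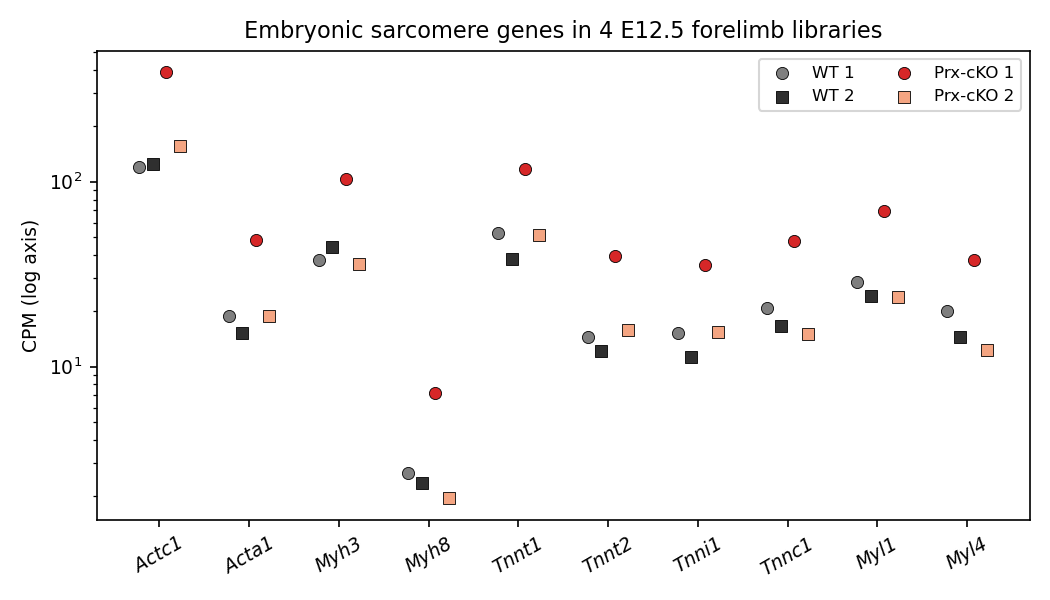
CPM (log axis) of each of the 10 sarcomere genes in the 4 forelimb libraries; each point is 1 library, grey and black for WT replicates 1 and 2, red and pink for Prx-cKO replicates 1 and 2. The red point is the highest for every gene, and the pink points lie among or near the WT points, as for Acta1 (18.9 against 18.8 and 15.2 CPM).

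The 2 actins kept nearly the same proportion in all 4 libraries. Per kilobase of the principal transcript, Acta1 made up 13.7% and 11.1% of the 2 actins in the WT pair and 11.1% and 10.995% in the knockout pair. The coding sequences of the pair are 86.3% identical over 1131 bases, with a longest identical run of 29 bases. Reads within the most similar stretches could have been divided between them or lost, depending on the counting.

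The myosin heavy chains are the motors of the thick filament, and the 2 members are the forms of developing muscle. Myh3 (ENSMUSG00000020908, chromosome 11, from 67078300 to 67102291), the embryonic form, had 37.5 and 44.1 CPM in the WT pair against 104 and 36.1 CPM in the knockout pair. Its log2 fold change was 0.77 (SE 0.49, edgeR adjusted p 0.624). Myh8 (ENSMUSG00000055775, chromosome 11, from 67277124 to 67308634), the perinatal form, had 2.65 and 2.34 CPM in the WT pair against 7.23 and 1.94 CPM in the knockout pair. Both genes were below both WT libraries in Prx-cKO replicate 2 and well above them in replicate 1, so the groups overlapped. Myh8, with the lowest level of the set, also had the largest SE (log2 fold change 0.82, SE 0.66, edgeR adjusted p 0.695). Per kilobase, Myh8 made up 4.95% to 6.47% of the pair in the 4 libraries, the range being set by the WT libraries. The 2 coding sequences share 80.9% of their aligned bases and an identical run of 77 bases, so some reads of the far more abundant Myh3 could have been counted as Myh8.

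Troponin T anchors the troponin complex to tropomyosin. Tnnt1 (ENSMUSG00000064179, chromosome 7, from 4504570 to 4516382), the slow skeletal form, had 52.7 and 38.3 CPM in the WT pair against 117 and 51.7 CPM in the knockout pair. Tnnt2 (ENSMUSG00000026414, chromosome 1, from 135836354 to 135852260), the cardiac form that early skeletal muscle also uses, had 14.4 and 12.2 CPM in the WT pair against 39.5 and 15.7 CPM in the knockout pair. For Tnnt1, Prx-cKO replicate 2 lay inside the WT range, the only member for which this was so, while for Tnnt2 it was 1.09 times the higher WT library. The log2 fold changes were 0.89 (SE 0.42) for Tnnt1 and 1.05 (SE 0.45) for Tnnt2, with edgeR adjusted p of 0.523 and 0.503. Per kilobase, Tnnt2 made up 19.0% to 22.4% of the 2 troponin T genes.

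Troponin I holds the thin filament off in the absence of calcium, and troponin C binds the calcium. Tnni1 (ENSMUSG00000026418, chromosome 1, from 135779434 to 135810989), the slow skeletal inhibitor, had 15.2 and 11.3 CPM in the WT pair against 35.5 and 15.3 CPM in the knockout pair. Tnnc1 (ENSMUSG00000091898, chromosome 14, from 31208312 to 31211729), the slow skeletal and cardiac calcium sensor, had 20.7 and 16.6 CPM in the WT pair against 47.8 and 15.0 CPM in the knockout pair. The replicate 2 knockout library was thus 1.01 times the higher WT library for Tnni1 but below both WT libraries for Tnnc1. The log2 fold changes were 0.94 (SE 0.44) for Tnni1 and 0.74 (SE 0.54) for Tnnc1, with edgeR adjusted p of 0.523 and 0.668. Per kilobase, Tnnc1 made up 68.6% and 70.0% of these 2 genes in the WT pair and 68.2% and 61.0% in the knockout pair.

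The alkali light chains stabilise the lever arm of myosin. Myl1 (ENSMUSG00000061816, chromosome 1, from 66924295 to 66945404), the fast skeletal form, had 28.6 and 24.1 CPM in the WT pair against 69.4 and 23.7 CPM in the knockout pair. Myl4 (ENSMUSG00000061086, chromosome 11, from 104550663 to 104595753), the embryonic and atrial form, had 19.9 and 14.5 CPM in the WT pair against 37.8 and 12.3 CPM in the knockout pair. In replicate 2 of the knockout both lay below both WT libraries. Myl4 had the smallest difference of the set, at 0.53 on the log2 scale (SE 0.54, edgeR adjusted p 0.767), and Myl1 was at 0.82 (SE 0.50, edgeR adjusted p 0.612). The exons of Myl4 overlap those of a small gene on the other strand, Gm22000, and the use of strand in the counting is not given in the sources used here. The exons of the other 9 members overlap no other gene of GENCODE M21.

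Read together, 0 of the 10 genes passed in edgeR after adjustment over the 19987 genes tested, where 0% passed. By unadjusted p under 0.05, 1 member was higher, Actc1, and none was lower, beside 5.87% higher and 4.61% lower among all genes tested. DESeq2 also called 0 members, while it called 0.691% of all genes as higher and 0.743% as lower. By its unadjusted p under 0.05, 5 members were higher, beside 4.48% of all genes. The median log2 fold change of the 10 members was 0.86 and that of all genes tested was −0.03. For 4 members (Actc1, Acta1, Tnnt2 and Tnni1) both knockout libraries lay above both WT libraries, a pattern shown by 22.2% of all genes, and for 0 members both lay below, as they did for 21% of all genes.

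The weight of the single library is visible in the fits without it. Without Prx-cKO replicate 1, the median of the members was 0.010 and 5 of them (Myh3, Myh8, Tnnc1, Myl1 and Myl4) had a negative log2 fold change. Their values then ran from −0.47 for Myl4 to 0.36 for Actc1, and 0 members had an unadjusted p under 0.05, beside 2.54% of all genes for higher values. Without Prx-cKO replicate 2, the median was 1.42 and the range was 1.14 for Myl4 to 1.68 for Actc1. All 10 then had an unadjusted p under 0.05, beside 1.63% of all genes for higher values, but 0 passed after adjustment (edgeR adjusted p 0.9998 for each). In these fits the remaining knockout library was assumed to vary like the WT libraries.

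**Figure D2:**
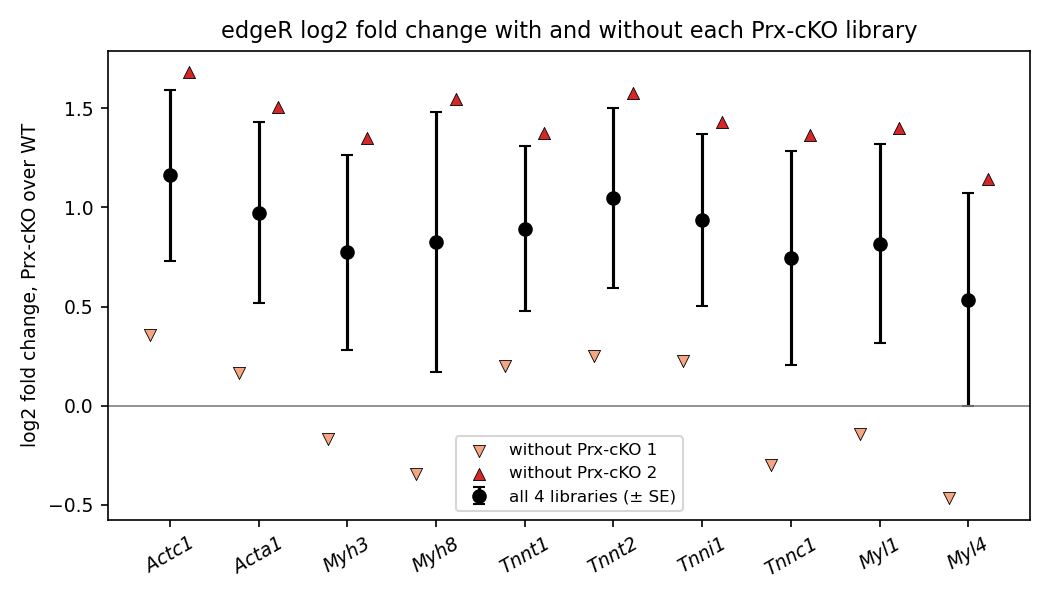
edgeR log2 fold change of Prx-cKO over WT for each sarcomere gene: black points with bars of 1 SE for all 4 libraries, downward triangles without Prx-cKO replicate 1 and upward triangles without Prx-cKO replicate 2. Downward triangles run from −0.47 to 0.36, on both sides of 0, and upward triangles from 1.14 to 1.68.

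Prx-cKO replicate 1 was at least 2-fold above the higher WT library for 9 of the 10 members, all but Myl4, and for 2.58% of all genes tested. For Prx-cKO replicate 2 this held for 0 members and for 1.94% of all genes. The 2 WT libraries differed by 1.03-fold to 1.37-fold for the members, and WT replicate 1 was the higher of them for 8 of 10. The 2 knockout libraries differed by 2.27-fold for Tnnt1 to 3.73-fold for Myh8. In every member the gap between the knockout replicates therefore exceeded the gap between the WT replicates.

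Levels were compared between genes per kilobase of the principal transcript, on the WT libraries. Actc1 led with 83.0 ± 2.01 CPM per kilobase (SD, n = 2), followed by Tnnt1 (44.3 ± 9.88), Myl1 (32.8 ± 3.94), Tnnc1 (25.9 ± 4.11) and Myl4 (18.3 ± 4.05). Acta1, Tnni1 and Tnnt2 followed at 11.8 ± 1.73, 11.5 ± 2.37 and 11.1 ± 1.30, and these 3 overlapped between neighbours in the order. Myh3 was at 6.76 ± 0.773 and Myh8 last at 0.405 ± 0.0351. Dividing by the merged length of all annotated exons kept Actc1 and Tnnt1 first and second and Myh8 last, but put Tnnc1 above Myl1, and Myl4 at rank 7 in place of rank 5, so the middle of the order depends on the transcript models. Actc1 accounted for 36.4% and 41.0% of the summed CPM of the 10 genes in WT and for 43.6% and 44.9% in Prx-cKO.

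Other parts of the sarcomere were read from a list of 44 further genes, of which 40 were tested. None passed (0 calls), 5 were higher at an unadjusted p under 0.05 and 0 lower (5.87% and 4.61% of all genes), and the median log2 fold change was 0.57. Of the 40, 33 had their highest level in Prx-cKO replicate 1, as did 18.7% of all genes. Without that library the median was 0.11, with 1 gene higher at an unadjusted p under 0.05 beside 2.54% of all genes. Without replicate 2 it was 1.04, with 20 genes higher beside 1.63% of all genes. Tpm2, a muscle tropomyosin that lies along the thin filament, had 69.3 and 68.6 CPM in the WT pair against 150.015 and 97.3 CPM in the knockout pair (log2 fold change 0.84, SE 0.24, edgeR adjusted p 0.441). Mybpc1, the slow form of myosin-binding protein C, had 14.9 and 12.7 CPM in the WT pair against 40.6 and 26.2 CPM in the knockout pair. Actn3, an alpha-actinin of the Z-disc, had 4.16 and 6.88 CPM in the WT pair against 15.2 and 12.3 CPM in the knockout pair. These 3 had the smallest p of that list, and in Prx-cKO replicate 2 Mybpc1 stood at 1.90 times, Actn3 at 2.23 times and Tpm2 at 1.41 times the WT mean.

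The most abundant genes of that list are not all specific to muscle. Ttn, the titin spring that spans the half-sarcomere, had 29.2 and 30.4 CPM in the WT pair against 35.3 and 20.5 CPM in the knockout pair (log2 fold change −0.10, SE 0.29, edgeR adjusted p 0.923). Tpm1 had 293 and 301 CPM in the WT pair against 430.2 and 357 CPM in the knockout pair, and Tpm3 had 257 and 305 against 272 and 313 CPM; both also make non-muscle tropomyosins. The filamin Flnc, an actin crosslinker of muscle, had 50.2 and 62.2 CPM in the WT pair against 82.6 and 69.8 CPM in the knockout pair. Mylpf, the fast regulatory light chain, also differed between the WT libraries, with 51.3 and 29.998 CPM in the WT pair and 94.3 and 29.1 CPM in the knockout pair.

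Genes that couple nerve and calcium to contraction formed a list of 22, all tested. None passed (0 calls), and 2 were higher at an unadjusted p under 0.05 and 0 lower, a count near the shares of all genes (5.87% and 4.61%). The median log2 fold change was 0.42, which was −0.17 without Prx-cKO replicate 1 and 0.87 without replicate 2. Atp2a1, the calcium pump of the sarcoplasmic reticulum, had 27.0 and 30.1 CPM in the WT pair against 59.0 and 44.9 CPM in the knockout pair (log2 fold change 0.86, SE 0.20, edgeR adjusted p 0.408). Rapsn, which clusters acetylcholine receptors, had 5.06 and 4.78 CPM in the WT pair against 16.8 and 9.24 CPM in the knockout pair. Musk, the receptor kinase of the neuromuscular junction, was at 2.06 and 3.80 CPM against 6.26 and 4.85 CPM. Cacna2d1, a calcium channel subunit, went the other way, with 50.9 and 59.3 CPM in the WT pair against 37.4 and 14.9 CPM in the knockout pair (edgeR adjusted p 0.479).

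**Figure D3:**
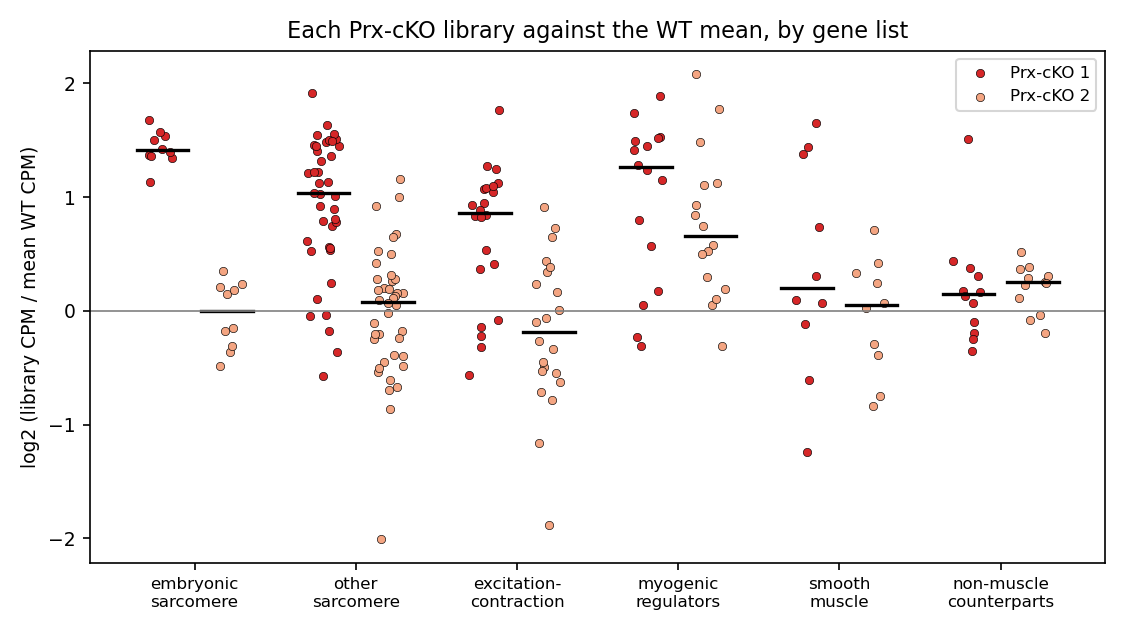
log2 ratio of each Prx-cKO library to the mean of the WT libraries for every tested gene of 6 lists; red points are Prx-cKO replicate 1, pink points replicate 2, and black lines the medians. For the 10 embryonic sarcomere genes the red points lie far above 0 and the pink points around 0, whereas the myogenic regulators lie mostly above 0 in both libraries.

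Genes that specify muscle cells and start their differentiation were read next. Of 16 regulators tested, 0 passed after adjustment in edgeR and 10 were higher at an unadjusted p under 0.05, beside 5.87% of all genes. For 12 of them both knockout libraries lay above both WT libraries, as for 22.2% of all genes. Their median log2 fold change was 1.05, and it was 0.68 without Prx-cKO replicate 1 and 1.27 without replicate 2. Pax3, which marks the migrating muscle precursors, had 3.09 and 3.16 CPM in the WT pair against 11.6 and 13.3 CPM in the knockout pair (log2 fold change 1.99, SE 0.25, edgeR adjusted p 0.320). Lbx1, which those precursors need to reach the limb, had 13.3 and 10.99 CPM in the WT pair against 34.1 and 33.9 CPM in the knockout pair. For both genes the knockout libraries were close together and well above the WT libraries. Cdh15, an adhesion protein of myoblasts, and Msc, a repressor expressed in them, were at 2.18 and 2.15 times the WT mean in Prx-cKO replicate 2 and at 2.74 and 2.87 times in replicate 1.

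The summed sarcomere level was also set beside Myod1 and Myog, which were singled out after their values were seen. Myod1, which commits cells to muscle, had 40.8 and 42.9 CPM in the WT pair against 120.5 and 79.9 CPM in the knockout pair. Myog, which switches on differentiation, had 63.6 and 59.3 CPM in the WT pair against 164 and 88.7 CPM in the knockout pair. The summed CPM of the 10 sarcomere genes was 331 and 303 in WT and 898 and 346 in Prx-cKO. Set against Myog, that sum was 5.20 and 5.11 in the WT pair and 5.48 and 3.91 in the knockout pair. Set against Myod1 the same ratio was 8.11 and 7.06 in WT, 7.46 in Prx-cKO replicate 1 and 4.335 in Prx-cKO replicate 2. Prx-cKO replicate 2 thus had the lowest ratio to either regulator. Prx-cKO replicate 1 lay inside the WT range for Myod1 and near it for Myog. The low ratios follow from values already seen, since Myod1 and Myog were at 1.91 and 1.44 times the WT mean in Prx-cKO replicate 2. Over the 7 regulators plotted, that level ran from 1.23 times for Mymk to 4.24 times for Pax3, so such a ratio depends on the gene chosen. Whether these ratios differ was not tested, since each is a single library.

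**Figure D4:**
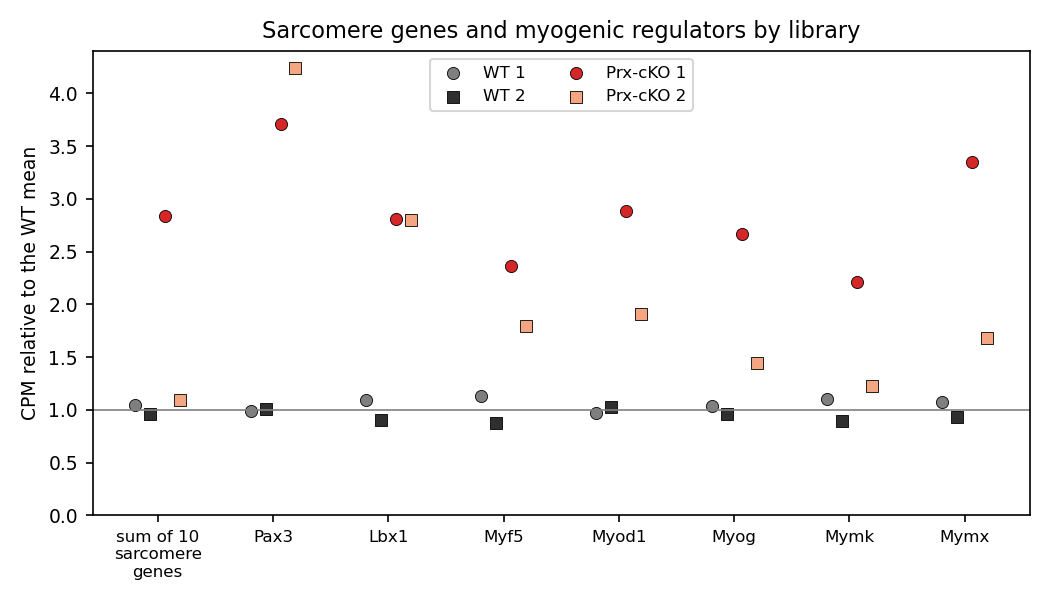
CPM relative to the WT mean for the summed 10 sarcomere genes and for 7 muscle regulators in the 4 forelimb libraries, 1 point per library. Prx-cKO replicate 2 (pink) stands near 1 for the sarcomere sum (346 against 331 and 303 CPM) and above both WT libraries for all 7 regulators, up to 4.24 for Pax3.

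Several members are shared with the heart, so cardiac markers were read beside them. Of 12 cardiac markers only 6 passed the filter on low counts, Nkx2-5 had 0 counts in all 4 libraries, and the summed level was 10.1 and 6.86 CPM in the WT pair against 6.82 and 5.81 CPM in the knockout pair. The 3 most abundant did not share a direction. Tnni3, the cardiac troponin I, had 6.64 and 2.49 CPM in the WT pair against 3.76 and 2.49 CPM in the knockout pair. Exons of Tnni3 overlap those of Dnaaf3 on the same strand, so some of these counts may belong to that gene. Myh6, the atrial myosin heavy chain, had 0.661 and 0.766 CPM against 1.81 and 0.803 CPM, from 28 and 55 against 52 and 41 counts. It was 2.53 times the WT mean in Prx-cKO replicate 1, the library in which the members were highest. Of the 6 cardiac markers tested, 1 was highest and 3 were lowest in that library. Gata4, a cardiac transcription factor, had 1.13 and 1.27 CPM against 0.626 and 0.861 CPM. The part of heart RNA in the members' levels was not tested.

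Smooth muscle shares the contractile machinery but not the sarcomere. Its 10 markers summed to 171 and 191 CPM in WT and to 331 and 205 CPM in Prx-cKO, with a median log2 fold change of 0.09. Most of the excess in Prx-cKO replicate 1 was Acta2, the smooth muscle alpha-actin that early skeletal muscle also expresses, with 89.5 and 93.0 CPM in the WT pair against 237 and 115 CPM in the knockout pair (edgeR adjusted p 0.473). The next most abundant markers, Smtn and Synpo2, were at 1.07 and 1.05 times the WT mean in that library. There, 3 of the 10 markers were at least 2-fold above the higher WT library, beside 2.58% of all genes. By log2 fold change 6 markers were higher and 4 lower, with 1 each way at an edgeR unadjusted p under 0.05 (5.87% and 4.61% of all genes). Both knockout libraries lay above both WT libraries for 3 markers and below them for 2, beside 22.2% and 21% of all genes. Coding sequences of Acta2 and Actc1 are 82.6% identical, so their counts may not be fully separate.

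Non-muscle counterparts of the members were read for comparison. Their 12 genes summed to 4808 and 4625 CPM in WT and to 5041 and 5276 CPM in Prx-cKO, with a median log2 fold change of 0.18 and 0 calls. Actb had 1052 and 1048 CPM in the WT pair against 979.5 and 1283 CPM in the knockout pair, and Actg1 had 1532 and 1236 against 1567 and 1354 CPM. Tpm4, a non-muscle tropomyosin, was at 486 and 471 CPM against 536 and 565 CPM. Of these 12, Myl9, a regulatory light chain of smooth and non-muscle myosin, was the one most like the members in profile, with 27.4 and 24.3 CPM in the WT pair against 73.5 and 32.0 CPM in the knockout pair.

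Markers of the other cells in the limb were summed to describe the same libraries. Chondrogenic markers had 1153 and 1262 CPM in the WT pair against 507 and 400.3 CPM in the knockout pair, and limb mesenchyme markers had 1871 and 2034 against 1346 and 1443 CPM. Endothelial markers had 219 and 199 CPM in the WT pair against 310.0 and 292 CPM in the knockout pair, and myeloid markers had 48.2 and 51.7 against 114 and 110.5 CPM. For these 4 lists the sums of both knockout libraries lay on the same side of both WT libraries. Nerve and Schwann sums did not overlap either, at 117 and 114 CPM in WT against 126 and 150.02 CPM in Prx-cKO. The sums of surface ectoderm (686 to 909 CPM) and erythroid markers (3841 to 5230 CPM) overlapped between genotypes. None of the tested genes on these lists passed in edgeR (0 calls). The part of these other cells in the members' levels was not tested.

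The genes with the profile most like the members were found by the distance between centred log2 CPM profiles over the 4 libraries, among 11329 candidates with a mean of at least 5 CPM. The 8 nearest were Tnnc2, Mybph, Ttc4, Ablim3, Myl9, Chrng, Vstm2b and Pigc, at distances of 0.178 to 0.355 from the median profile of the members, where the median candidate was at 1.33 and the members themselves at 0.105 to 0.400. Tnnc2, the fast skeletal troponin C, had 6.71 and 5.75 CPM in the WT pair against 17.5 and 5.42 CPM in the knockout pair. Mybph, a thick filament protein related to myosin-binding protein C, had 11.4 and 11.5 CPM in the WT pair against 32.5 and 11.3 CPM in the knockout pair. Exons of Tnnc2 and Mybph overlap genes on the other strand (Ube2c and Adora1). Chrng, the acetylcholine receptor subunit of fetal muscle, was at 13.7 and 8.49 CPM against 26.7 and 10.6 CPM. Ttc4, Ablim3, Vstm2b and Pigc are on none of the gene lists read here. Ttc4 had 47.1 and 40.2 CPM in the WT pair against 96.0 and 39.5 CPM in the knockout pair. Pigc had 10.3 and 10.9 against 32.0 and 9.04 CPM. Ablim3 was at 12.3 and 11.9 against 28.9 and 10.3 CPM, and Vstm2b at 6.69 and 6.09 against 16.1 and 4.82 CPM. Within the members, Myl1 was nearest to their median profile and Myl4 farthest. With 4 libraries the measure mainly records how far Prx-cKO replicate 1 stood above the others.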

How the data were processed

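Per the labels, total RNA was extracted with TRIzol and sequenced from an mRNA library kit. The authors deposited raw read counts per Ensembl gene, with no normalization, 1 table for the 4 forelimb libraries and 2 for the 8 culture libraries. Per the submitters' processing notes, the build was GRCm38 and FastQC 0.11.2, Trimmomatic 0.36, HISAT2 2.1.0 and DESeq2 1.12.4 were used; which counting tool, gene annotation and strand setting were used is not given in the sources used here. Counts of related or overlapping genes can therefore be misassigned.

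Members and lists were chosen with earlier results of these data known. The forelimb counts were filtered with filterByExpr, scaled by TMM and tested over all 19987 genes with the edgeR 4.0.16 quasi-likelihood test (legacy = FALSE, two-sided, Benjamini-Hochberg, calls at an adjusted p under 0.05) on group means. SE was derived from the fold change and its F statistic. CPM uses the scaled library sizes. No test was run between tables. The pipeline was tested on simulated data. Replicates differed by more than sampling noise (chi-square per degree of freedom 145 in WT and 49.1 in Prx-cKO).

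Positions and transcript lengths are from GENCODE M21 (GRCm38), with the principal APPRIS transcript as the length. Named beside the members were, from the list of other sarcomere genes, the 6 most abundant and the 3 with the smallest p. The 4 smallest p were named for excitation-contraction genes and for myogenic regulators, the 3 most abundant for cardiac, smooth muscle and non-muscle genes, and the 8 most alike. Myod1 and Myog, the other regulators plotted (Myf5, Mymk and Mymx) were added after their values were seen. Alternatives were the DESeq2 size factors, no scaling, no filter, legacy = TRUE, DESeq2 1.42.0, a replicate block, leaving out each library, and a term for sex type, the last chosen after seeing the data.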

Additional observations from a re-analysis of the deposited data

How the results depend on the processing

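The count of called members was 0 under all 11 alternatives. The count of all called genes was 0, but 301 in DESeq2 and 1 with sex type as a term, and ran from 0 to 603 on omitting a single library (603 on omitting WT replicate 1, 104 on omitting WT replicate 2, 0 on omitting either Prx-cKO library). The median log2 fold change of the members, 0.86, ran from 0.010 without Prx-cKO replicate 1 to 1.42 without Prx-cKO replicate 2, and from 0.71 to 0.88 under the alternatives that kept all libraries. With the replicate block it was 0.71, with 0 members called and 3 higher at an unadjusted p under 0.05, beside 7.35% of all genes in that fit. The deviations of same-numbered libraries correlated at r = 0.26, which with 2 numbers does not show that they pair, and the block left the counts of calls at 0. With sex type as a term the median was 0.73.

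Of 110 single-gene values under the alternatives, 105 kept their direction and their side of the threshold. The other 5 reversed, all without Prx-cKO replicate 1. Leaving out 1 library gave ranges of −0.17 to 1.35 for Myh3, −0.35 to 1.54 for Myh8, −0.30 to 1.36 for Tnnc1, −0.14 to 1.40 for Myl1 and −0.47 to 1.14 for Myl4. The other 5 stayed positive, from 0.16 for Acta1 to 1.68 for Actc1. Over all alternatives the smallest edgeR or DESeq2 adjusted p of any member was 0.153, for Tnnt1. The lowest member count in any library was 99, for Myh8. With 2 libraries a group, the precision of each comparison rests on the spread within both groups. For the members, that spread was larger in the knockout pair.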

Other observations

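The osteoclast cultures gave a background for the sarcomere genes in cells of another lineage. In the 8 culture libraries, with 16009146 to 19221865 counts each, Actc1, Myh8, Tnni1 and Myl1 had 0 counts in 7, Myh3 in 6, Tnnt2 in 4 and Myl4 in 1. Actc1 reached 11 counts and Tnnt2 14 counts in 1 WT R40D3 library (replicate 1), where the other WT library with that title held 0 and 4. Acta1 (3 to 12 counts), Tnnt1 (6 to 20 counts) and Tnnc1 (3 to 15 counts) had counts in every culture library. The lowest forelimb level was at least 16.5 times the highest culture level, for Tnnc1, and 391 times for Myl1, with the culture values scaled by total counts and the tables normalized separately.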
